A study of Mus musculus with 4 samples.

Results

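Proteins that coat lipid droplets, fuse them, help form them or release fatty acids from them were followed through 10 genes chosen by symbol: Cidea, Cideb, Cidec, Plin2, Plin4, Plin5, Fitm1, Fitm2, Pnpla2 and Hsd17b13. They were read with 14 probes among the 30439 genes or transcripts of the array. Liver RNA of male C57BL/6J mice kept for 24 weeks on a high-fat diet was hybridised to 4 one-colour Agilent arrays, 1 for each group. The groups were control (Cont, called wild type in the labels and Drp1 flox/flox littermates in the study's methods) and Drp1LiKO (Alb-Cre Tg/+ Drp1 flox/flox in the study's text, a liver-specific knockout of Drp1, the GTPase that divides mitochondria, with Cre driven by the albumin promoter), each on 1 array labelled Refed and on 1 array without a feeding label. Whether an array holds RNA of 1 animal or of several is not given in the sources used here. The series text describes a fast of 17 h followed by 4 h of refeeding and names no group that stayed fasted. The arrays without a feeding label are called fasted here because the study describes its dataset as fasted and refed livers.

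A lipid droplet is a core of triacylglycerol and cholesteryl ester under a single layer of phospholipid. FIT proteins in the endoplasmic reticulum help droplets form, perilipins coat their surface and control access of lipases, CIDE proteins at contacts between droplets pass lipid from the smaller to the larger droplet, and adipose triglyceride lipase (Pnpla2) starts the release of fatty acids. In the liver, Plin2, Plin5, Cideb and Hsd17b13 are well-known droplet proteins of hepatocytes, whereas Cidea and Cidec are scarce in lean liver and appear in fatty liver.

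Each level below is the log2 of the background-subtracted signal minus the log2 of the 75th percentile of its array, so that 0 stands for a signal at that percentile. All 10 genes had signal well above background on each of the 4 arrays, as did 14447 genes in all, and no spot was saturated. The measurement standard error (SE) of a difference between arrays, from the scanner's error model, lay between 0.20 and 0.21 on the log2 scale for these genes. It holds no difference between animals, and with 1 array for each group there is no replicate spread and no test. The genes were chosen with these array differences known, so the values describe the arrays. The number of arrays limits the precision.

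The arrays differed in ways that bear on these genes. Of 6 skeletal muscle markers, 5 (Acta1, Ckm, Myh4, Myl1 and Tnnt3) were well above background on the fasted control array and none on the other arrays with the probe used for each gene, and the summed level of the list was 3.21 there against 0.077 to 0.147. The second probe of Myl1 was instead well above background on the refed control array alone. It was at -1.71 there and at -5.44 on the fasted control array. The probe used for Myl1 was at -0.40 on the fasted and -5.39 on the refed control array, so the 2 probes disagreed. Ucp1, the uncoupling protein that defines brown fat, was well above background on the fasted control array only. The summed level of 5 brown adipocyte markers was 12 on the fasted and 6.72 on the refed control array. It was 5.32 on the fasted and 2.17 on the refed Drp1LiKO array. Of the 5, Elovl3 had the highest level on each array, and Dio2 was well above background on none. Elovl3 was at 2.99 and 1.85 on the fasted and refed control arrays, and at 2.13 and 0.39 on those of Drp1LiKO. The adipocyte-defining Adipoq, Lep, Retn and Plin1 were not well above background on any array. All 5 hepatocyte markers were well above background on each array, with genotype differences of -0.67 to -0.16 in the fasted and -0.72 to -0.27 in the refed pair; under quantile normalization Alb was at 0.065 in the fasted pair. The single probe of the targeted gene, Dnm1l, differed by -0.21 (SE 0.20) in the fasted and -0.12 (SE 0.20) in the refed pair, and whether it lies inside the deleted part is not given in the sources used here, so it does not check the genotype labels. The genotype difference of the refed pair rests on neither fasted array and is the value without the fasted control array.

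**Figure D1:**
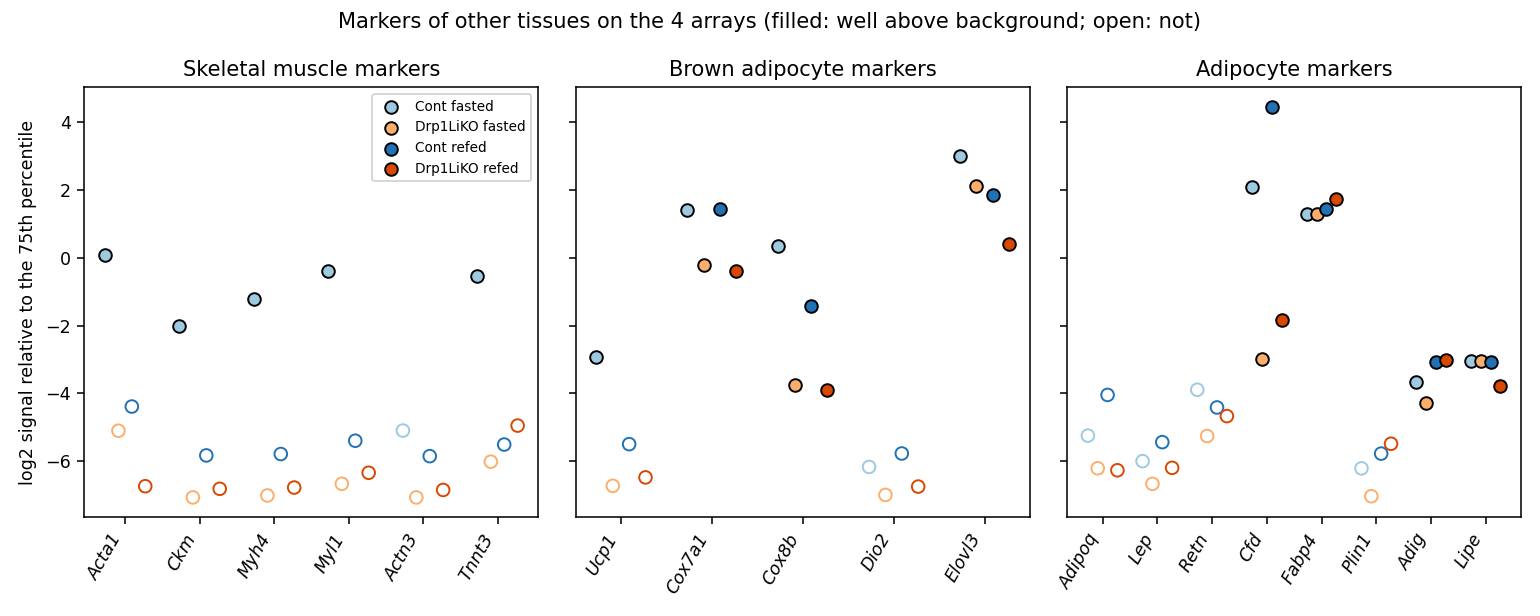
Markers of skeletal muscle, brown adipocytes and adipocytes (columns) on the 4 arrays (colours), as log2 signal relative to the 75th percentile of the array; filled points are well above background and open points are not. Each gene is shown with the probe used for it: 5 muscle markers and Ucp1 are filled on the fasted control array only, and Adipoq, Lep, Retn and Plin1 are open on every array.

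In the fasted pair, Drp1LiKO liver had at least 2-fold less Cidea, Plin4 and Fitm1 and at least 2-fold more Cidec RNA. This was 4 of the 10 genes, where the 2-fold mark was passed by 13.2% of all genes well above background on at least 1 of both arrays. Among the 14447 genes detected on every array, 2.75% were higher and 3.31% lower by this mark. The median difference of the 10 genes was -0.17, beside -0.12 for all genes. In bulk tissue, fewer cells of a type and less RNA in each cell cannot be told apart.

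In the refed pair, Cidea, Plin4, Fitm1 and Fitm2 were at least 2-fold lower in Drp1LiKO liver and none of the 10 was 2-fold higher. In this pair 14.4% of the genes detected on at least 1 of both arrays passed the mark in either direction, and of the 14447 genes detected on every array 3.12% passed it upward and 3.99% downward. The median of the 10 genes was -0.79, beside -0.079 for all genes. Of the 10, 8 were below 0, as were 8353 of the 14447. Cidea, Plin4 and Fitm1 were thus lower in Drp1LiKO liver in both feeding states, and the pairs share no array.

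Refeeding went with at least 2-fold more Cidea and Cidec in control liver, where the mark was passed by 10.3% of the genes detected on at least 1 of both arrays, and, among the 14447 genes detected on every array, by 1.6% upward and 2.37% downward. In Drp1LiKO liver the refed array had at least 2-fold less Plin2, Plin4 and Plin5 and no gene of the 10 that was 2-fold higher, where the corresponding percentages were 12.8 in either direction over the first set of genes, and 2.85 upward and 3.02 downward over those detected on every array. The median refeeding difference of the 10 genes was 0.12 in control and -0.61 in Drp1LiKO liver, beside 0.11 and 0.12 for all genes. In Drp1LiKO liver 9 of the 10 were lower on the refed array, as were 5907 of the 14447 genes. Fitm1 was the exception, and Cideb turned to 0.077 under median scaling. The refeeding differences use the same 4 arrays as the genotype differences and are no second measurement.

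**Figure D2:**
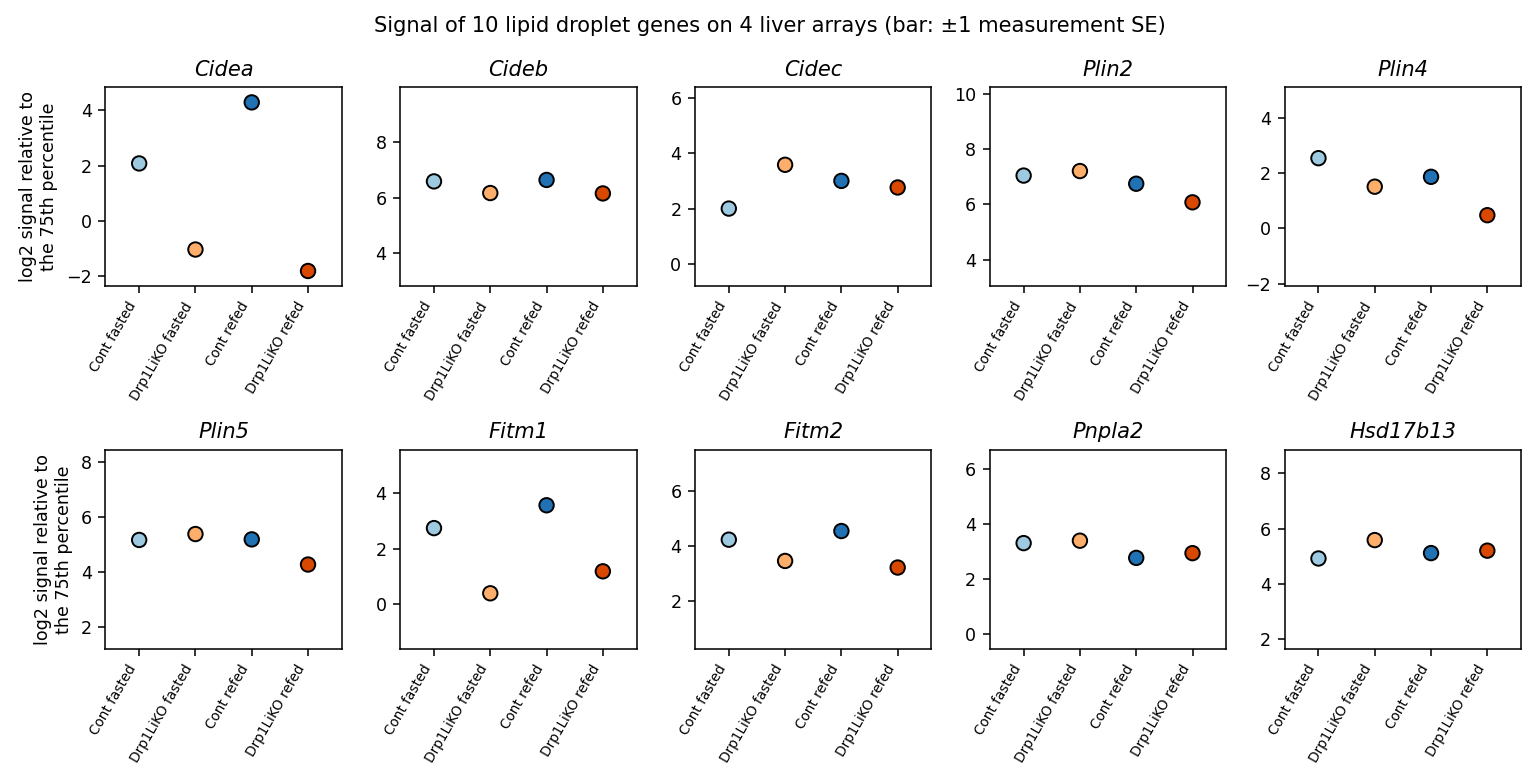
Level of each of the 10 genes on the 4 arrays, as log2 signal relative to the 75th percentile of the array (each panel spans the same number of log2 units around its own centre); bars are ±1 measurement SE and lie within most points. Cidea spans 6.10 log2 units and Cideb 0.49.

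The CIDE family showed 3 different patterns. Cidea, which drives droplet fusion in brown fat and in fatty liver, had log2 levels of 2.08 on the fasted control, -1.04 on the fasted Drp1LiKO, 4.29 on the refed control and -1.81 on the refed Drp1LiKO array. The order was refed Drp1LiKO, fasted Drp1LiKO, fasted control and refed control, and each step in it was larger than 2 measurement SE. In Drp1LiKO liver Cidea was 8.67-fold lower in the fasted pair (log2 -3.12, SE 0.21) and 68.8-fold lower in the refed pair (log2 -6.10, SE 0.21). Refeeding went with a 4.63-fold higher level in control and a 1.71-fold lower level in Drp1LiKO liver, so that the genotype differences of the feeding states stood -2.99 apart (SE 0.29). No other gene of the 10 had as wide a range. The direction of Cidea in each comparison was kept under median scaling, quantile normalization, normexp and in the authors' values. The refed genotype difference ran from -6.06 to -5.45 over these. The remaining alternatives cannot change the level of a gene with 1 probe that is well above background on all 4 arrays. Of the brown adipocyte list, Cox7a1, Cox8b and Elovl3 were well above background on every array, Ucp1 on the fasted control array only and Dio2 on none. Cox7a1, Cox8b and Elovl3 were lower in Drp1LiKO liver too, by -1.62, -4.08 and -0.86 in the fasted and -1.81, -2.50 and -1.45 in the refed pair. Cox8b was highest on the fasted control array with its muscle marker signal, at 0.33 against -1.41 on the refed control array. The part of muscle RNA in its level was not tested. Of 8 adipocyte markers 4 were well above background on each array. The summed level of the 8 was 6.99 on the fasted and 24.9 on the refed control array. It was 2.81 on the fasted and 3.90 on the refed Drp1LiKO array. The highest array was that of Cidea too, but chiefly through Cfd alone. By genotype Cfd differed by -5.07 in the fasted and -6.27 in the refed pair. Fabp4 was at 0.015 and 0.31, Adig at -0.63 and 0.032 and Lipe at -0.025 and -0.72. The part of fat cells or brown fat in the levels of Cidea, Cidec and Plin4, which fat cells also express, was not tested. The Cidea probe lies at chromosome 18, 67527351 to 67527410 (mm9, plus strand).

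Cideb, the hepatocyte member that takes part in loading very-low-density lipoprotein with lipid, had the narrowest range. Its log2 levels were 6.59 on the fasted control, 6.17 on the fasted Drp1LiKO, 6.64 on the refed control and 6.15 on the refed Drp1LiKO array. Both control arrays were above both Drp1LiKO arrays, and the arrays of the same genotype differed by less than 2 SE. The genotype differences, -0.42 in the fasted and -0.49 in the refed pair, lay within the range of the 5 hepatocyte markers given above. On the second Cideb probe they were -0.046 and -0.41, and under quantile normalization the probe used gave -0.099 in the fasted pair.

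Cidec, known as Fsp27 and required for the large droplets of white fat cells, was the gene of the 10 that was 2-fold higher in Drp1LiKO liver. Its levels were 2.0 on the fasted control, 3.59 on the fasted Drp1LiKO, 3.0 on the refed control and 2.77 on the refed Drp1LiKO array. The fasted control array was lowest and the fasted Drp1LiKO array highest, and the refed arrays lay between them and differed from each other by less than 2 SE. The genotype difference was 1.59 (3.0-fold, SE 0.20) in the fasted and -0.24 (SE 0.20) in the refed pair, which put the pairs -1.82 apart (SE 0.29). The refeeding difference was 1.0 in control and -0.82 in Drp1LiKO liver. The first of these sat at the 2-fold mark and ran from 0.88 to 1.05 over the 8 alternatives, below the mark under median scaling, quantile normalization, normexp and in the authors' values. The fasted genotype difference and the control refeeding difference use the fasted control array with its muscle marker signal, whose part in them was not tested.

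The array carries 2 Cidec probes, on the minus strand of chromosome 6, and the first 30 bases of each are shown because both gave this pattern from separate stretches of the transcript. The first lies 552 bases and the second, which gave the values above, 1642 bases into the transcript (mm9).
Cidec probe at chr6:113378116-113378175: tctatgacacatactcgctttcctatgacc
Cidec probe at chr6:113374630-113374689: tttttccacgaatgagtgaatggtattaga
The first probe gave genotype differences of 2.19 in the fasted and -0.0026 in the refed pair, and refeeding differences of 1.11 in control and -1.08 in Drp1LiKO liver. Both probes therefore had the same direction in each comparison, and the refeeding difference in Drp1LiKO liver passed the 2-fold mark on the first probe only.

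**Figure D3:**
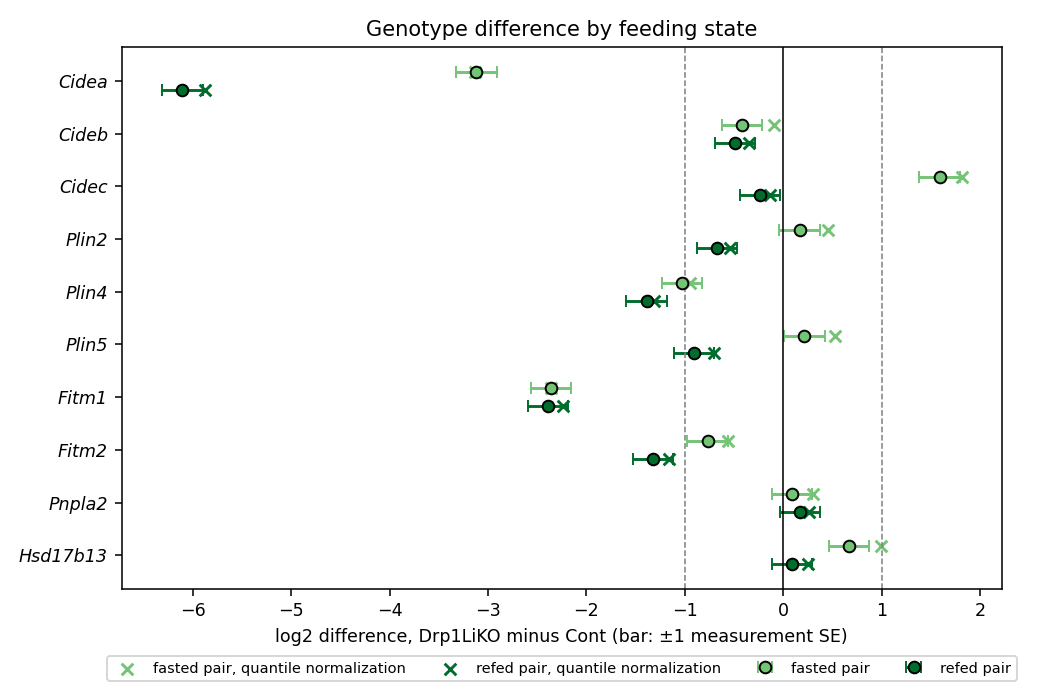
Log2 difference, Drp1LiKO minus control, for each of the 10 genes (rows) in the fasted pair and the refed pair; bars are ±1 measurement SE, crosses are the values after quantile normalization, and dashed lines mark 2-fold. Cidea, Plin4 and Fitm1 lie to the left in both pairs, and Cidec lies past the 2-fold line to the right in the fasted pair only.

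The perilipins shared their lowest level, on the refed Drp1LiKO array. Plin2, the general perilipin of liver droplets, had levels of 7.05 on the fasted control, 7.21 on the fasted Drp1LiKO, 6.75 on the refed control and 6.08 on the refed Drp1LiKO array. Plin5, which tethers droplets to mitochondria in tissues that oxidise fat, had levels of 5.17, 5.38, 5.19 and 4.28 on the same arrays in the same order. For both genes the refed Drp1LiKO array stood below the next lowest by more than 2 SE, and neighbours among the other arrays differed by less than that. Refeeding went with 2.19-fold less Plin2 (log2 -1.13) and 2.15-fold less Plin5 (log2 -1.10) in Drp1LiKO liver, against -0.30 and 0.021 in control liver, both within 2 SE. Under quantile normalization these values were -1.61 and -1.46 in Drp1LiKO and -0.62 and -0.23 in control liver. The genotype difference of Plin2 was 0.16 in the fasted and -0.67 in the refed pair, and that of Plin5 was 0.21 and -0.91. For Plin5 the pairs stood -1.12 apart (SE 0.29), and for Plin2 -0.84 (SE 0.29).

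Plin4, a perilipin of nascent droplets that is abundant in white fat and muscle, had levels of 2.54 on the fasted control, 1.51 on the fasted Drp1LiKO, 1.87 on the refed control and 0.48 on the refed Drp1LiKO array. In each feeding state the Drp1LiKO array was below its control, by 2.05-fold in the fasted pair (log2 -1.03, SE 0.20) and 2.62-fold in the refed pair (log2 -1.39, SE 0.20). The refed array was below the fasted array of its genotype, with log2 differences of -0.68 in control and -1.03 in Drp1LiKO liver. The fasted genotype difference ran from -1.09 to -0.94 over the 8 alternatives and missed the 2-fold mark under quantile normalization, normexp and in the authors' values, and the refeeding difference in Drp1LiKO liver missed it under median scaling, at -0.94. Plin4 was highest on the fasted control array, where the summed muscle marker level was highest, and the part of muscle RNA in its differences was not tested. Plin4 and Plin5 are neighbours on chromosome 17 with no other gene starting between them, and their fasted genotype differences were -1.03 and 0.21. The probes lie on the minus strand at chromosome 17, 56240055 to 56240114, for Plin4, at chromosome 17, 56251025 to 56251084, for Plin5 and at chromosome 4, 86302847 to 86302906, for Plin2 (mm9).

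**Figure D4:**
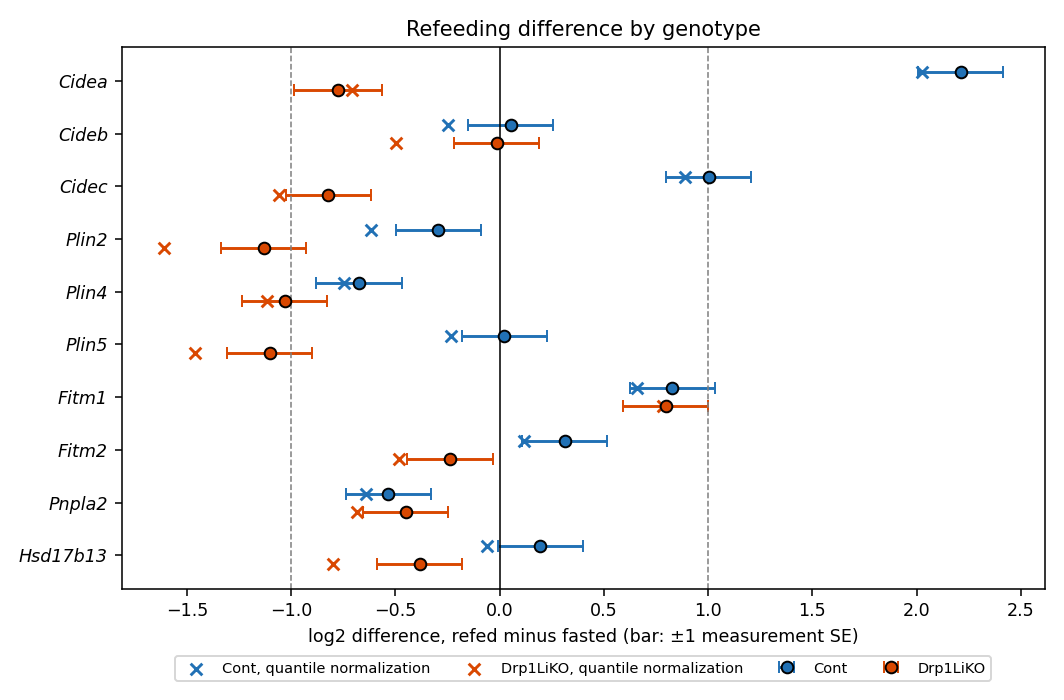
Log2 difference, refed minus fasted, for each of the 10 genes (rows) in control and in Drp1LiKO liver; bars are ±1 measurement SE, crosses are the values after quantile normalization, and dashed lines mark 2-fold. Plin2, Plin4 and Plin5 lie past the 2-fold line to the left in Drp1LiKO liver, and Cidea lies to the right in control and to the left in Drp1LiKO liver.

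Genes of droplet proteins are classical targets of PPAR nuclear receptors, which bind paired copies of the half-site AGGTCA with 1 base between them. The 250 bases before the transcript start were therefore searched in RefSeq (GRCm38.p6) for AGGTCA on either strand, in 11 promoters of 9 of the genes (Cidea was not searched). It was found in 1 promoter each of Plin2, Plin5 and Hsd17b13. That is 3 of 11 promoters, of 3 of the 9 genes, beside 14.0% of all 32851 promoters of the same length. These 3 promoters are printed with the half-site, or its reverse complement, in capitals.
Plin2 promoter at chr4:86670060-86670309, minus strand: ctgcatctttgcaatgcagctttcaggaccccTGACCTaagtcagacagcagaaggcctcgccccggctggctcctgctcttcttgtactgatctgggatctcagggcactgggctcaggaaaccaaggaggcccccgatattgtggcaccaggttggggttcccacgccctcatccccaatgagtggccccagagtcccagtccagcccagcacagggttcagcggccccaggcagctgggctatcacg
Plin5 promoter at chr17:56117549-56117798, minus strand: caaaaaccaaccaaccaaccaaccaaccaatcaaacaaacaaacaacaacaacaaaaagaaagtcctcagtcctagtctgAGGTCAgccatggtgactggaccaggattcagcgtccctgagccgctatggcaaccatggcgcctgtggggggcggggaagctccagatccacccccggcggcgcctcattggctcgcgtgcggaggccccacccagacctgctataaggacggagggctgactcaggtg
Hsd17b13 promoter at chr5:103977389-103977638, minus strand: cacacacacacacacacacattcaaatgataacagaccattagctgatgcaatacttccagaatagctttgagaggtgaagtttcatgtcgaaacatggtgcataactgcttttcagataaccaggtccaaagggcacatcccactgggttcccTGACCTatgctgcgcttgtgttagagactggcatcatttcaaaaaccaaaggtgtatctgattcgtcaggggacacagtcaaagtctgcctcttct
The half-site begins 218 bases before the start in Plin2, 170 in Plin5 and 96 in Hsd17b13. In Plin2 it is the first part of a direct repeat with 1 base between, AGGTCAGGGGTCC on the other strand, which has 2 mismatches to the perfect repeat; 3.24% of all promoters hold such a repeat, and no other of the 9 genes did. The E-box CACGTG was in none of the 9 (6.02% of all promoters), and TGATGCA, the core of the site bound by C/EBP and ATF proteins together, was in Hsd17b13 only (2.68%). Plin4, which was also 2-fold lower on refeeding in Drp1LiKO liver, held none of these letters in its window. Hsd17b13, which held the half-site, was not 2-fold lower there, at -0.38, within 2 SE of 0, and at -0.80 under quantile normalization. A match here is a match of letters and was not tested as a binding site.

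The FIT proteins, which bind triacylglycerol in the endoplasmic reticulum where droplets form, were both lower in Drp1LiKO liver. Fitm1, the form known from skeletal and heart muscle, had levels of 2.74 on the fasted control, 0.38 on the fasted Drp1LiKO, 3.57 on the refed control and 1.18 on the refed Drp1LiKO array, with every step in the order larger than 2 SE. It was 5.14-fold lower in the fasted pair (log2 -2.36, SE 0.20) and 5.25-fold lower in the refed pair (log2 -2.39, SE 0.20). The genotype differences of the feeding states stood -0.031 apart (SE 0.29), and the sign of this gap turned under median scaling, quantile normalization, normexp and in the authors' values. Refeeding went with levels higher by 0.83 in control and 0.80 in Drp1LiKO liver. With the probe used, 5 of the 6 muscle markers were well above background on the fasted control array and none on the others. Their summed level was 3.21 on the fasted control array and 0.147 on the refed control array, where Fitm1 was highest. It was 0.077 on the fasted and 0.081 on the refed Drp1LiKO array. Of all their probes only the second Myl1 probe was well above background on the refed control array. The part of muscle RNA in the level of Fitm1 was not tested.

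The 60 bases of the Fitm1 probe run over 427 bases of chromosome 14 (56194734 to 56195160, mm9, plus strand), so the probe reads spliced RNA across an intron. Its first 30 bases are shown for that reason.
Fitm1 probe at chr14:56194734-56195160: tcacgttaactctcggacgatcttcgctag
Fitm2, the widely expressed form, had levels of 4.22 on the fasted control, 3.45 on the fasted Drp1LiKO, 4.53 on the refed control and 3.21 on the refed Drp1LiKO array. Both control arrays were above both Drp1LiKO arrays, and arrays of the same genotype differed by less than 2 SE. The genotype difference was -0.77 in the fasted and -1.32 in the refed pair (2.50-fold, SE 0.20). The second Fitm2 probe, nearer the start of the transcript, gave -0.21 and -0.88, so the 2-fold mark in the refed pair was passed on 1 of 2 probes.

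Pnpla2, the lipase that takes the first fatty acid off stored triacylglycerol, did not differ by genotype beyond 2 SE. Its levels were 3.31 on the fasted control, 3.39 on the fasted Drp1LiKO, 2.77 on the refed control and 2.94 on the refed Drp1LiKO array. The 2 fasted arrays were above the 2 refed arrays, with refeeding differences of -0.53 in control and -0.45 in Drp1LiKO liver, both larger than 2 SE, although no step between neighbours in this order was. The genotype difference was 0.087 (SE 0.20) in the fasted and 0.17 (SE 0.20) in the refed pair. Its probe lies at chromosome 7, 148645928 to 148645987 (mm9, plus strand).

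Hsd17b13, a droplet-bound dehydrogenase of hepatocytes known for its link to fatty liver disease, had levels of 4.92 on the fasted control, 5.58 on the fasted Drp1LiKO, 5.11 on the refed control and 5.20 on the refed Drp1LiKO array. The fasted Drp1LiKO array was highest, and no step between neighbours exceeded 2 SE. The genotype difference was 0.67 (1.59-fold, SE 0.20) in the fasted and 0.089 (SE 0.20) in the refed pair. Under quantile normalization the fasted value was 0.99, just short of 2-fold. The 2 probes on chromosome 5 are shown by their first 30 bases because they read different stretches, the first 916 and the second 1430 bases into the transcripts they are assigned to (mm9, minus strand).
Hsd17b13 probe at chr5:104392792-104392851: agtcgtatacagaacattcaatttgaagca
Hsd17b13 probe at chr5:104384701-104384760: tacccatgccttggtatatgagtatctgtg
The first probe gave the values above. The second gave genotype differences of 0.50 (SE 0.29) in the fasted and 0.0052 (SE 0.36) in the refed pair, and its refeeding differences were -0.10 in control and -0.60 in Drp1LiKO liver. The probes had opposite signs in the control refeeding comparison, where the first gave 0.19, or -0.062 under quantile normalization.

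**Figure D5:**
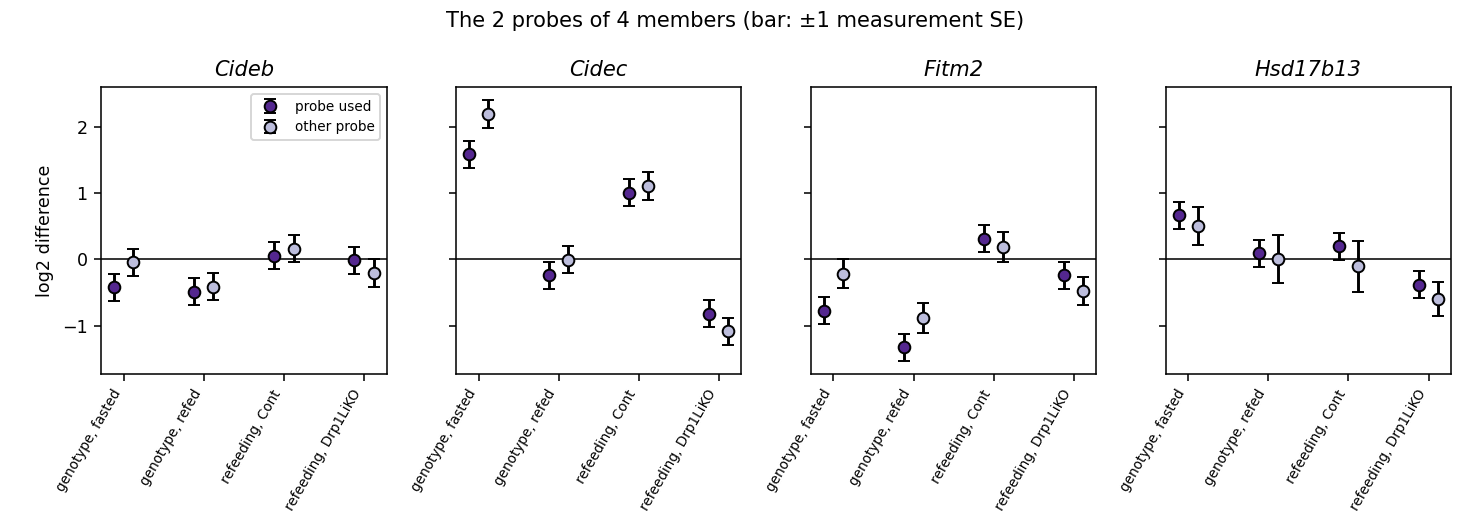
Log2 differences (±1 measurement SE) in the 4 comparisons from the 2 probes of Cideb, Cidec, Fitm2 and Hsd17b13; dark points are the probe used and light points the other probe. The probes of Cidec have the same sign in all 4 comparisons. In the fasted genotype comparison the probe used and the other probe stand at 1.59 and 2.19 for Cidec and at -0.77 and -0.21 for Fitm2.

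Of 16 further genes for droplet proteins, 14 were well above background on all 4 arrays. None passed the 2-fold mark in the fasted genotype or the Drp1LiKO refeeding comparison, and G0s2 alone did so in the others. G0s2, the protein inhibitor of Pnpla2, had genotype differences of -0.70 in the fasted and -1.91 (SE 0.20) in the refed pair, and refeeding differences of 1.42 (SE 0.20) in control and 0.22 in Drp1LiKO liver. The last of these was -0.046 under quantile normalization. The medians of the 14 genes were -0.024 and -0.090 for genotype and 0.19 and 0.16 for refeeding.

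Of 10 other lipases and lipase cofactors, 9 were well above background on all 4 arrays, and Pnpla3 on none. With the probe used for each gene, no lipase passed the 2-fold mark in the fasted pair or on refeeding. Lpl was close to it in the fasted pair, at 0.93 (SE 0.21), and at 1.04 on its second probe. On refeeding in control liver Mgll was at 0.14 with the probe used and at -1.24 on the lowest of its 4 probes. In the refed pair Lpl, the lipoprotein lipase of capillaries, was higher by 1.45 (SE 0.21), and Mgll, which completes the breakdown of triacylglycerol, was at -1.34, Lipc, the hepatic lipase, at -1.11 and Ces1d, a carboxylesterase that mobilises stored lipid, at -1.10 (SE 0.20 to 0.21). Under quantile normalization Ces1d was at -0.92, below the mark, and the 4 probes of Mgll ran from -1.44 to -0.43. The median of the 9 genes was -0.30 in the fasted and -0.60 in the refed pair, and 0.10 and -0.49 on refeeding in control and Drp1LiKO liver.

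Of 10 transcriptional regulators known to act on droplet genes, all were well above background on all 4 arrays. Ppara, the fasting-activated nuclear receptor of hepatocytes, was lower in Drp1LiKO liver by -1.06 in the fasted and -1.39 in the refed pair (SE 0.20), with -0.82 in the fasted pair under quantile normalization. Srebf1, which drives fatty acid synthesis and is named with the following genes after their values were seen, was at -1.65 (SE 0.23) in the fasted and -0.39 in the refed pair, and its refeeding differences were 1.29 in control and 2.55 in Drp1LiKO liver. Ppargc1a was at -1.02 on refeeding in control liver, but at -0.98 under quantile normalization and at -0.53 on its second probe. Pparg, the receptor that drives Cidea and Cidec in fat cells, had genotype differences of 0.40 and -0.18, neither 2-fold. The median genotype difference of the 10 regulators was -0.56 in both pairs, and their median refeeding differences were 0.069 and -0.24.

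Genes with the pattern nearest to Cidea and Fitm1, the pair of genes with the widest range, were sought among 14446 others by the Euclidean distance between the centred log2 signals of the 4 arrays. For Cidea these were Aatk (distance 1.22), Cfd (1.74), a probe without a gene name (A_55_P2151956, 1.95), Tpm2 (2.11) and Serpina4-ps1 (2.28). Cfd, the adipocyte-rich complement factor D, had genotype differences of -5.07 in the fasted and -6.27 in the refed pair, against the -3.12 and -6.10 of Cidea. For Fitm1 the distances were smaller, with Kcnk10 (0.40), BC025829 (0.44), Prok1 (0.55), Inmt (0.64) and Slc22a7 (0.67). Likeness over 4 arrays of 1 sample each is a description.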

How the data were processed

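Liver RNA was measured on 4 one-colour arrays, 1 for each group. The intensity values used were the processed signals deposited by the authors as scanner output. Per the file headers, Agilent Feature Extraction 10.7.1.1 subtracted the background within each array (the labels name 9.5.1.1); other columns of the deposited files, the flags for outliers, saturation and signal well above background, were used as filters. The deposited table of normalized linear intensity (median 5.31 on the log2 scale in each column) was an alternative, and 99.7% of its values lay within 0.01 log2 of a quantile normalization of the signals.

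From the log2 signal the log2 of the array's 75th percentile (a signal of 357 to 722) was subtracted, and 48.7 to 58.2% of 43020 spots for genes passed the background flag. Spots of a probe were averaged and outlier spots left out, which removed 37 of 39429 probes. Symbols were updated through 26761 RefSeq accessions (GRCm38.p6). The probe well above background on most arrays, then the brightest, stood for its gene. A call was a difference of at least 2-fold with the brighter signal well above background. A model over the 4 arrays would leave the interaction as its only error and was not used. The genes and lists were chosen with earlier results of these data known. All 10 genes, and of each other list the genes past the mark, up to 4 by size, were named; the pattern search used the 5 nearest genes. The 8 alternatives were median scaling, quantile normalization, normexp (limma 3.58.1 in R 4.3.3, offset 50), the authors' values, the median over probes, a filter on all 4 arrays, bounds for dim signals and a 1.5-fold mark. Scripts ran in Python 3.11.15 and were tested on simulated data.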

Additional observations from a re-analysis of the deposited data

Results flagged for a closer look

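For 7 of the 10 genes the same contrast ran in opposite directions in the groups it was made in. Any change of sign was counted, whatever its size, and the share of all genes with such a change is not given here. The count is therefore no trait of these genes. With 1 array for each group the difference was not tested. The genotype difference turned from higher in Drp1LiKO liver in the fasted pair to lower in the refed pair for Cidec (1.59 and -0.24, a gap of -1.82), Plin2 (0.16 and -0.67, a gap of -0.84) and Plin5 (0.21 and -0.91, a gap of -1.12). The refeeding difference turned from higher in control to lower in Drp1LiKO liver for Cidea (2.21 and -0.78, a gap of -2.99), for Cidec (1.0 and -0.82, the same gap of -1.82) and for Plin5 (0.021 and -1.10, the same gap of -1.12). Smaller gaps of this kind were those of Fitm2 (0.31 and -0.24, a gap of -0.55), Hsd17b13 (0.19 and -0.38, a gap of -0.58) and Cideb (0.052 and -0.014, a gap of -0.067). The gaps have a measurement SE of about 0.29, so that those of Fitm2 and Cideb were smaller than 2 SE. Both sides lay beyond 2 SE of 0 in the refeeding contrasts of Cidea and Cidec only, and in the other turns named here at least 1 side lay within 2 SE of 0. Under quantile normalization Cideb, Plin5 and Hsd17b13 were below 0 on refeeding in control liver as well.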

How the results depend on the processing

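No call of a gene reversed under any of the 8 alternatives. Under the 5 that can change a level, 243 of 250 recalculated values moved by less than their measurement interval and 7 by more. The median over probes cannot move the values of the 6 genes with 1 probe, and the authors' values nearly repeat the quantile normalization. The 250 values are therefore not separate checks. The other 3 alternatives (the filter, the bounds and the 1.5-fold mark) change only counts here. On refeeding in control liver 2 genes (Cidea and Cidec) passed the 2-fold mark, against 1 (Cidea) under median scaling, quantile normalization, normexp and in the authors' values, and 4 at a 1.5-fold mark. On refeeding in Drp1LiKO liver 3 genes passed, against 6 at the 1.5-fold mark, 4 with Cidec under quantile normalization and in the authors' values, and 2 without Plin4 under median scaling. The genotype counts of 4 in each pair became 3 in the fasted pair under quantile normalization, normexp and in the authors' values, with Plin4 lost, and 6 in each pair at the 1.5-fold mark. Scaling moved the median of all genes: -0.12, -0.079, 0.11 and 0.12 for genotype in the fasted and refed pairs and refeeding in control and Drp1LiKO liver became -0.014, -0.0085, 0.046 and 0.044 under quantile normalization, and the fasted median of the 10 genes went from -0.17 to 0.10 and their control refeeding median from 0.12 to -0.15. The cause was not tested. No paired analysis was possible because each group has 1 array. Leaving out an array would remove a group.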

Other observations

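The 6 macrophage markers had summed levels of 56.6 on the fasted control, 66.4 on the fasted Drp1LiKO, 61.1 on the refed control and 101 on the refed Drp1LiKO array. Of the 6, Trem2 and Lyz2 were at least 2-fold higher in Drp1LiKO liver in both pairs and the others in neither; Clec4f was at -0.16, Adgre1 at 0.17, Cd5l at 0.25 and Cd68 at 0.60 in the fasted pair, and these 4 lay between 0.34 and 0.82 in the refed pair. Trem2, a receptor of lipid-laden macrophages, differed by 2.43 in the fasted and 1.64 in the refed pair, and Lyz2, the lysozyme of myeloid cells, by 1.38 and 1.53. The stellate cell list had summed levels of 0.781, 1.47, 1.03 and 1.24 on the same arrays in the same order. Those of the cholangiocyte list were 0.201, 0.353, 0.256 and 0.548, and those of the endothelial list 39.0, 36.2, 37.0 and 27.8. The stellate markers Col1a1, Lrat, Des and Reln differed by 1.67, 0.84, -0.075 and -0.74 in the fasted pair. In the refed pair they differed by -0.024, 0.60, 0.022 and -0.33. Epcam was well above background on no array, and Sox9 and Des were not on the refed control array. The part of these cells in the levels of the droplet genes was not tested.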
